A study of Mus musculus with 4 samples.

Results

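The mitochondrial ribosomal proteins were described at the level of their transcripts in mouse embryonic stem (ES) cells with a knock-down of FBL. The members are all genes whose RefSeq symbol is Mrpl or Mrps followed by a number and an optional letter, where Mrpl marks the large and Mrps the small subunit. The probes were assigned by the RefSeq accession on the array, and the rule uses symbols only, not expression values, though this group of genes was taken up with earlier results of these data known. This gave 77 of the 17008 genes that the arrays name, read by 113 of 41124 probes. The large subunit was represented by 48 genes with 70 probes and the small subunit by 29 genes with 43 probes. The RefSeq table lists 78 genes with such a symbol, and Mrpl48 had no probe.

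Total RNA was labelled with Cy3 and hybridised to 1-colour Agilent arrays, 1 array per sample, with 2 samples in each of 2 groups. The FBL knock-down samples were kept without Tc (tetracycline) for 2 days. The control samples received Tc at 1000 ng/mL, and FBL is labelled as expressed in them. All 4 samples are of the same Tc-inducible FBL-kd ES cell line, grown on gelatin with leukaemia inhibitory factor (LIF), the cytokine that keeps mouse ES cells undifferentiated. Because control cells differ from knock-down cells in Tc as well as in FBL, loss of FBL and absence of the drug cannot be told apart here. Tetracyclines bind bacterial ribosomes and can also inhibit translation in mitochondria. No label states that replicates were independent cultures, so every p-value reflects no more than the variation among these 4 samples, possibly technical variation.

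Fibrillarin, the product of Fbl, is the nucleolar methyltransferase that modifies ribosomal RNA under the guidance of box C/D small nucleolar RNAs. It serves the cytosolic ribosome. The mitochondrial ribosome is a separate machine of bacterial descent. Its RNAs are encoded by mitochondrial DNA, whereas its proteins are encoded in the nucleus, made in the cytosol and imported. It translates the few proteins of the respiratory chain that mitochondrial DNA encodes. Some of its proteins have bacterial homologues, and others are found only in mitochondria. The comparison asks whether the transcripts for these imported proteins differ after FBL knock-down.

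Each probe value below is the deposited log2 value, in which 0 is the 75th percentile of that array, and each change is the mean of the knock-down arrays minus the mean of the control arrays. Fbl had values of 5.98 and 5.94 in the knock-down samples, against 8.63 and 8.12 in the controls. It was 5.32 times lower (a log2 change of −2.41 with an SE of 0.25 and n = 2 per group, adjusted p = 4.44e-04 in limma). The 4 arrays had between 24480 and 26386 of their 41174 probes well above background. Knock-down sample 2 was alone on slide 2, and the other samples shared slide 1. 

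All 10 ES cell markers examined were well above background on every array. Of their 12 probes 0 rose and 0 fell in limma, against 3.73% and 2.47% of all probes tested. A lower mean in the knock-down samples was found at 8, against 55.9% of all probes. Both knock-down values lay below both controls at 6 of the 12, against 30.6% of all probes. They lay above both controls at 2, against 20.8%. An unadjusted p under 0.05 was reached by 4, against 20.1% of all probes. These were Nanog (−0.82 ± 0.22), Lin28a (−0.62 ± 0.23) and both probes of Zfp42 (−0.61 and −0.54). The ES cell markers had a summed linear level of 893 and 1166 in the knock-down samples and 1077 and 884 in the controls. Dppa5a made 58.8% to 73.5% of it. Of 6 fibroblast markers, which a feeder layer would carry, 5 were above background on every array and Col3a1 on none. Their sums were 3.76 and 4.09 in the knock-down samples and 7.28 and 4.71 in the controls, and Thy1 made 77.7% to 88.1% of them. Thy1 fell at 1 of its 2 probes, whereas the 4 probes of Col1a1, Col1a2, Pdgfrb and Twist1 had changes of 0.17 to 0.47 and were not called. Of 5 primitive endoderm markers 3 were above background on every array, with sums of 0.233 and 0.199 in the knock-down samples and 0.409 and 0.301 in the controls. Sox7 fell (adjusted p = 4.44e-04) and 1 of 2 probes of Sox17 rose (adjusted p = 0.00112), so this list had calls in both directions. That Sox17 probe was well above background on only 2 arrays, with control values of −7.00 and −7.03. It entered the test through the knock-down group alone, so its call is no independent support for a rise. Of 5 trophectoderm markers 4 were above background on every array, with sums of 24.8 and 21.1 in the knock-down samples and 14.1 and 11.9 in the controls, of which Tfap2c made 97.9% to 98.3%. In limma Krt7 rose (adjusted p = 0.00393) and Elf5 fell (adjusted p = 0.0223). Cdx2 (0.83 ± 0.23) and Tfap2c (0.82 ± 0.23) were not called. Both knock-down values lay above both controls at 3 of the 5 probes, against 20.8% of all probes, and below both at 2, against 30.6%. Of the 5 probes 4 reached an unadjusted p under 0.05, against 20.1% of all probes, and 3 of these had a higher mean in the knock-down samples. Elf5 was well above background on 3 arrays, with values of −6.01 and −7.21 in the knock-down samples and −5.10 and −4.86 in the controls. It entered the test through the control group alone, so its call is no independent support for a fall. The part of these marker differences in the results below was not tested.

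Few transcripts of the mitochondrial ribosomal proteins were called. Of the 111 member probes tested, which covered all 77 genes, 0 rose and 2 fell with a limma adjusted p under 0.05. Both lie in the large subunit, at Mrpl19 and at 1 of 2 probes of Mrpl50. Across all 25078 probes tested, 6.2% were called, 3.73% rising and 2.47% falling, against 1.80% of the member probes. An unadjusted p under 0.05 was reached by 6 member probes, all with lower values in the knock-down samples. That is 5.41% of the member probes, against 20.1% of all probes. Of the 5292 probes whose mean value lay in the central range of the members, 1.76 to 5.89, fewer passed than of all probes, with 2.82% called and 13.6% at an unadjusted p under 0.05. The share of called members is thus read against a background that varies with signal. In bulk samples fewer cells of a type and less RNA per cell cannot be told apart, so a change may reflect either.

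The changes of the members lay between −0.93 and 0.49 on the log2 scale. Their standard errors ran from 0.22 to 0.29, and the smallest change called anywhere on the arrays was 0.86. The 95% interval of the change lay within 2-fold in either direction for 104 of the 111 member probes, or 93.7%, against 71.2% of all probes and 81.8% of the probes in the members' range of signal. For the large subunit this held for 63 of 68 probes and for the small subunit for 41 of 43. The exceptions were Mrpl19, Mrpl30, Mrpl36, Mrps22, and 1 probe each of Mrpl35, Mrpl50 and Mrps25, all with an interval that reached below a 2-fold loss. The interval included 0 for all but 6 of the 111 probes.

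**Figure D1:**
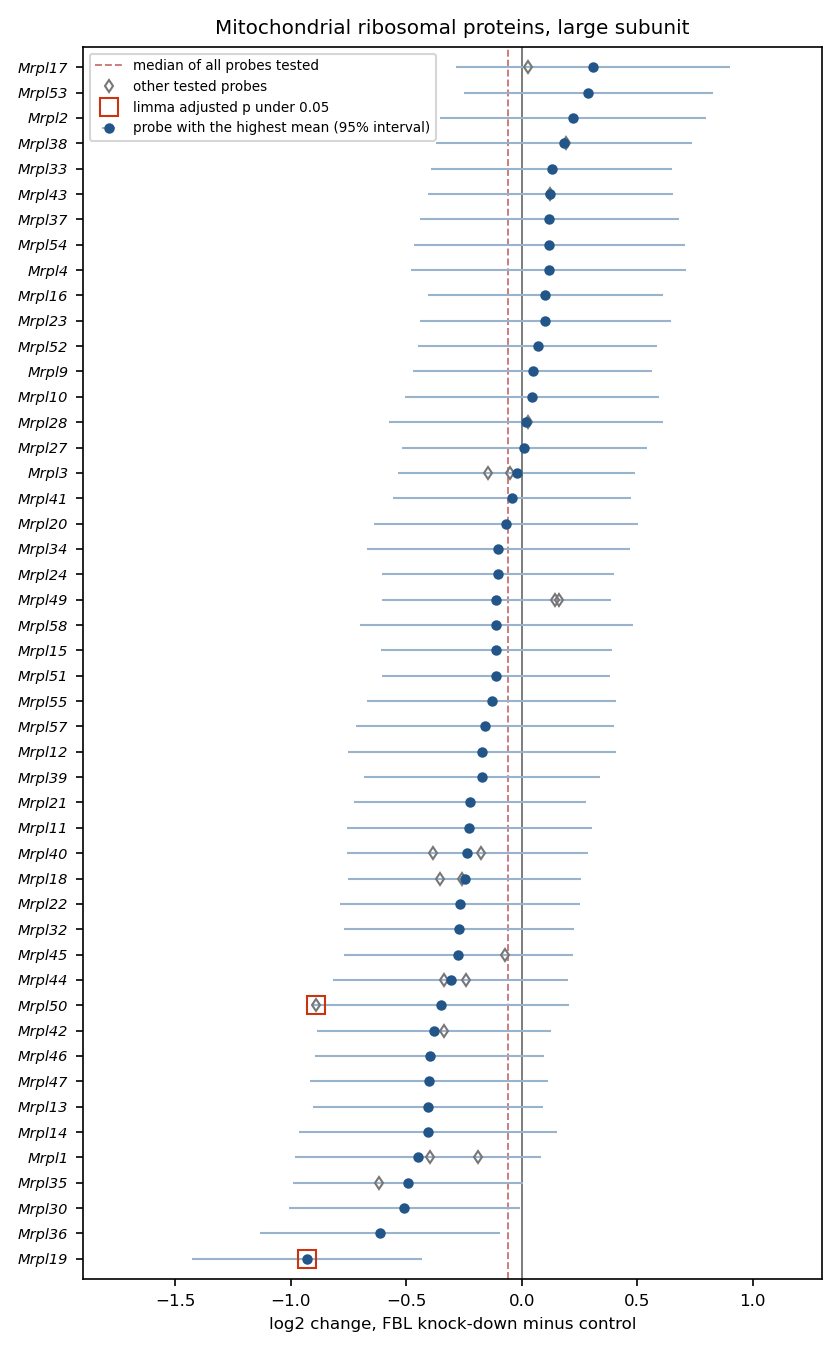
Log2 change (FBL knock-down minus control, horizontal axis) of the 48 genes of the large subunit, sorted by the change at the probe with the highest mean (filled circle, with its 95% interval from limma, n = 2 per group). Diamonds are further tested probes, red squares mark the 2 probes with an adjusted p under 0.05, and the dashed line is the median of all probes tested. Mrpl19 lies lowest, and most intervals span 0.

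Mrpl19 encodes a large-subunit protein with a bacterial homologue, bL19. Its only probe read 0.92 and 0.80 in the knock-down samples and 1.74 and 1.84 in the controls. The groups did not overlap, and the samples of each group lay close together. Mrpl19 fell by 0.93 ± 0.22 (log2, SE), or to 1.91 times below control, with a limma adjusted p of 0.037. Mrpl50 encodes a subunit found in mitochondrial but not in bacterial ribosomes. The probe that was called read 0.53 and 0.39 in the knock-down samples and 1.35 and 1.34 in the controls, a fall of 0.89 ± 0.22 with an adjusted p of 0.0436. The other Mrpl50 probe read 2.65 and 2.74 in the knock-down samples and 2.79 and 3.30 in the controls. There the knock-down values were again below both controls, but control 1 lay close to them, and the change was −0.35 ± 0.25 with an adjusted p of 0.489. With the probes of each gene averaged, Mrpl50 had a change of −0.62 and an adjusted p of 0.154, so its call rests on a single probe.

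Both calls ended when either knock-down array was left out. The SE of both probes was then 0.45, against 0.22 in the main fit. With 1 array left in that group, a lost call cannot be told from this loss of precision. Within slide 1, which leaves out knock-down sample 2, Mrpl19 had a change of −0.87 and an adjusted p of 0.657, and the called Mrpl50 probe a change of −0.82 and an adjusted p of 0.759. Without knock-down sample 1 the changes were −0.99 and −0.96, with adjusted p-values of 0.344 and 0.378. The sizes thus moved little while the calls ended. Both calls also ended with quantile normalization (limma adjusted p = 0.0545 for Mrpl19 and 0.0552 for Mrpl50), which called 4.77% of all probes. With the 75th percentile taken over bright probes they ended too (0.0512 and 0.0549), with 5.70% called, against 6.2% in the main fit. They also ended with no filter on dim probes (0.333 and 0.352), where 0 of all probes were called. The loss with no filter is therefore not particular to these genes.

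The promoter of Mrpl50 was set beside those of Mrps22, Mrps11 and Mrps17. Of these, Mrps22 had the lowest change of the small subunit, Mrps17 the highest, and Mrps11 starts near another member. Each line gives the 120 bases before the RefSeq transcription start, 5′ to 3′ on the strand of the gene, in GRCm38.p6. The windows are chr4:49521084-49521203 on the minus strand for Mrpl50, chr9:98601680-98601799 on the minus strand for Mrps22, chr7:78783011-78783130 on the plus strand for Mrps11 and chr5:129715377-129715496 on the plus strand for Mrps17. Capitals mark matches to 5 motifs, which are described with the promoters further on.

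Mrpl50: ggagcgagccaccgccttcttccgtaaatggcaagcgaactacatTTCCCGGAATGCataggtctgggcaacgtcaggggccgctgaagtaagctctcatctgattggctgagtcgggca

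Mrps22: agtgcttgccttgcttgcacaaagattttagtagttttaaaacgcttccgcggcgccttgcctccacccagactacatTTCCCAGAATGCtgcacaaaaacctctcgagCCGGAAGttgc

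Mrps11: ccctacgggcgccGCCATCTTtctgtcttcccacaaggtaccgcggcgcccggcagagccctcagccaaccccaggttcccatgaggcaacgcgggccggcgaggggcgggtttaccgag

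Mrps17: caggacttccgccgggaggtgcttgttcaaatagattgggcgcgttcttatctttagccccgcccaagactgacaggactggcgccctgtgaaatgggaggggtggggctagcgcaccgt

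Mrpl50 and Mrps22 each hold the 12-base ZNF143 motif in this stretch, and Mrps22 also an ETS match next to the start. Mrps11 holds a YY1 match on the opposite strand. The Mrps17 stretch holds no match to these letters.

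The remaining low end of the large subunit was formed by Mrpl36, Mrpl30 and Mrpl35, which encode homologues of the bacterial proteins bL36, uL30 and bL35. Mrpl36 read 4.06 and 3.84 in the knock-down samples and 4.69 and 4.44 in the controls (change −0.61 ± 0.23, limma adjusted p = 0.171). Mrpl30 read 3.25 and 3.12 in the knock-down samples and 3.76 and 3.63 in the controls (−0.51 ± 0.22, adjusted p = 0.242). Mrpl35 read 3.40 and 3.30 in the knock-down samples and 3.90 and 3.77 in the controls (−0.49 ± 0.22, adjusted p = 0.257). In all 3 genes both knock-down values lay below both controls, as they did at 30.6% of all probes tested, and none passed the test. The other probe of Mrpl35 gave a change of −0.62 with an adjusted p of 0.149.

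At the other end, Mrpl17, Mrpl53, Mrpl2 and Mrpl38 had the highest changes of the large subunit. Mrpl17, a homologue of bacterial bL17, read 4.78 and 4.93 in the knock-down samples and 4.88 and 4.23 in the controls (0.31 ± 0.27, adjusted p = 0.586). Here control 1 lay between the knock-down values, and only control 2 was lower. Mrpl53, a mitochondria-specific subunit, read 4.16 and 4.21 in the knock-down samples and 4.12 and 3.67 in the controls, a change of 0.29 ± 0.24. Mrpl2, whose bacterial counterpart uL2 lies near the peptidyl transferase centre, had a change of 0.22 ± 0.26, and Mrpl38, another mitochondria-specific subunit, had changes of 0.18 ± 0.25 and 0.19 ± 0.26 at its probes. None of these 4 genes was called.

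Members with known roles beyond the scaffold showed no call. Mrpl10 and Mrpl12 form the stalk that recruits translation factors, and Mrpl12 also binds the mitochondrial RNA polymerase. Mrpl10 had a change of 0.04 ± 0.25 and Mrpl12 one of −0.17 ± 0.26, with values for Mrpl12 of 6.27 and 6.53 in the knock-down samples and 6.86 and 6.29 in the controls. The controls of Mrpl12 lay further apart than the group means. Mrpl58, a peptidyl-tRNA hydrolase that frees stalled mitochondrial ribosomes, had a change of −0.11 ± 0.27. Mrpl44, which has a ribonuclease III-like fold, was read by 3 probes with changes of −0.31, −0.24 and −0.33. All 3 had both knock-down values below both controls, as did 30.6% of all probes tested. Mrpl41 had a change of −0.04 ± 0.23, and its second probe was not well above background on any array and was not tested. The same held for 1 probe of Mrpl57.

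Mrpl28 read 7.43 and 7.61 in the knock-down samples and 7.83 and 7.18 in the controls, a change of 0.02 ± 0.27. Both knock-down values fell between the controls, as they did for Mrpl20 (−0.07 ± 0.26), a homologue of the bacterial assembly protein bL20. Mrpl9, the homologue of bL9, had a change of 0.05 ± 0.23. Mrpl32, which is cut by a mitochondrial protease before it enters the ribosome, had a change of −0.27 ± 0.22. Both its knock-down values lay below both controls, as at 30.6% of all probes tested.

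In the small subunit 0 of 43 probes rose and 0 fell in limma, against 3.73% and 2.47% of all probes tested. An unadjusted p under 0.05 was reached by 1 of them, at Mrps22, or 2.33%, against 20.1% of all probes. No other tool was run. Mrps22, a mitochondria-specific subunit, read 2.54 and 2.47 in the knock-down samples and 2.89 and 3.15 in the controls (−0.52 ± 0.23, adjusted p = 0.243). Mrps18c followed with changes of −0.43 ± 0.22 and −0.28 ± 0.22 at its probes. Mrps9, the homologue of uS9, gave −0.38 ± 0.23 and −0.26 ± 0.22. Each of these probes had both knock-down values below both controls, as did 30.6% of all probes tested.

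**Figure D2:**
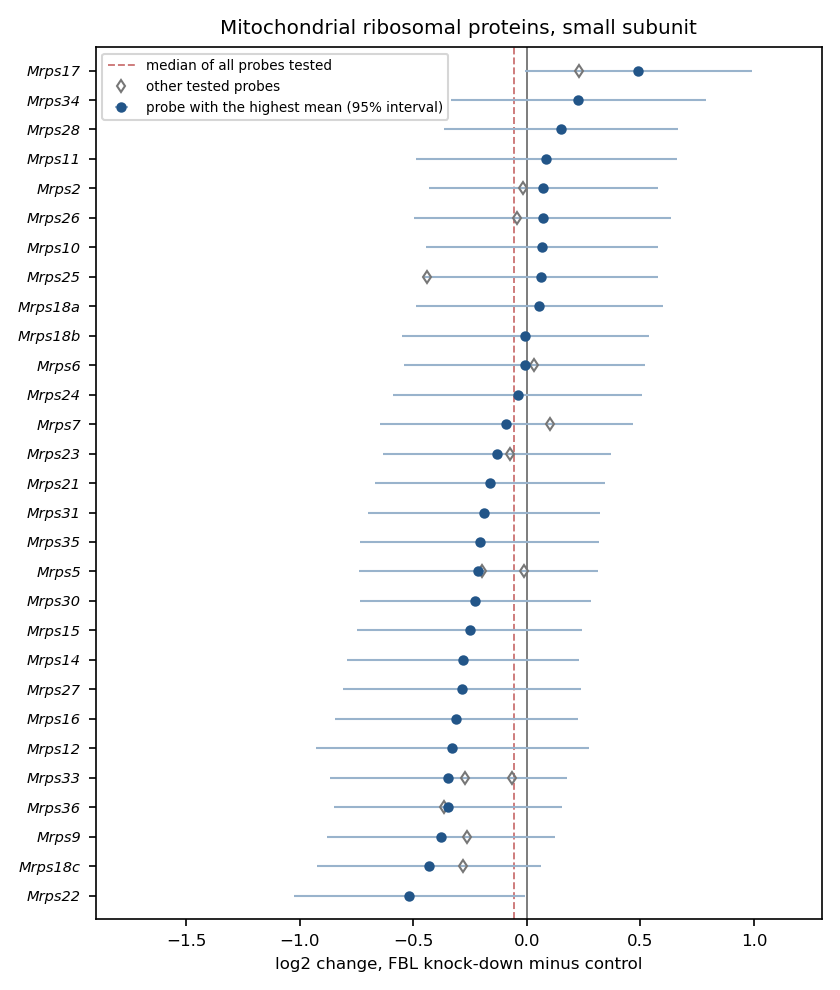
Log2 change (FBL knock-down minus control, horizontal axis) of the 29 genes of the small subunit, drawn as for the large subunit: filled circles with 95% intervals are the probe with the highest mean, diamonds further tested probes, and the dashed line the median of all probes tested (n = 2 per group). Changes ran from −0.52 at Mrps22 to 0.49 at Mrps17, and no probe was called.

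Mrps17, the homologue of uS17, had the highest change of all members. It read 4.55 and 4.43 in the knock-down samples and 4.08 and 3.92 in the controls, a change of 0.49 ± 0.23 with a limma adjusted p of 0.259. Its second probe read 2.87 and 2.79 in the knock-down samples and 2.71 and 2.49 in the controls, a change of 0.23 ± 0.23. Both knock-down values were above both controls at each probe. This held for only 4 member probes in all, or 3.60%, against 20.8% of all probes tested. The remaining pair were Mrpl53 and 1 of 3 probes of Mrpl49. Mrps34, a mitochondria-specific subunit, had a change of 0.23 ± 0.25, Mrps28 one of 0.15 ± 0.23 and Mrps11, the homologue of uS11, one of 0.09 ± 0.26.

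The genes Mrps18a, Mrps18b and Mrps18c are paralogs of each other and encode homologues of bacterial bS18. The changes of Mrps18a and Mrps18b were smaller than their SE, so their direction is not resolved. Mrps18a had a change of 0.06 ± 0.24, Mrps18b one of −0.01 ± 0.24 and Mrps18c one of −0.43 ± 0.22, and no difference between them was tested. Mrps18a and Mrps30 carry small-subunit names although their products sit in the large subunit of the mammalian ribosome. Mrps30 had a change of −0.23 ± 0.23. Mrps36, whose product has been assigned to the α-ketoglutarate dehydrogenase complex rather than to the ribosome, had changes of −0.35 and −0.36 at its probes.

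Mrps12 encodes the decoding-centre protein uS12. It read 4.54 and 4.12 in the knock-down samples and 4.94 and 4.38 in the controls, a change of −0.33 ± 0.27, and knock-down sample 1 lay above control 2. Mrps16, the homologue of bS16, read 6.42 and 6.41 in the knock-down samples and 6.94 and 6.51 in the controls, a change of −0.31 ± 0.24. Mrps33 was read by 3 probes with changes of −0.35, −0.27 and −0.06. Mrps27, a pentatricopeptide-repeat subunit, had a change of −0.28 ± 0.24 and Mrps21, the homologue of bS21, one of −0.16 ± 0.23.

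**Figure D3:**
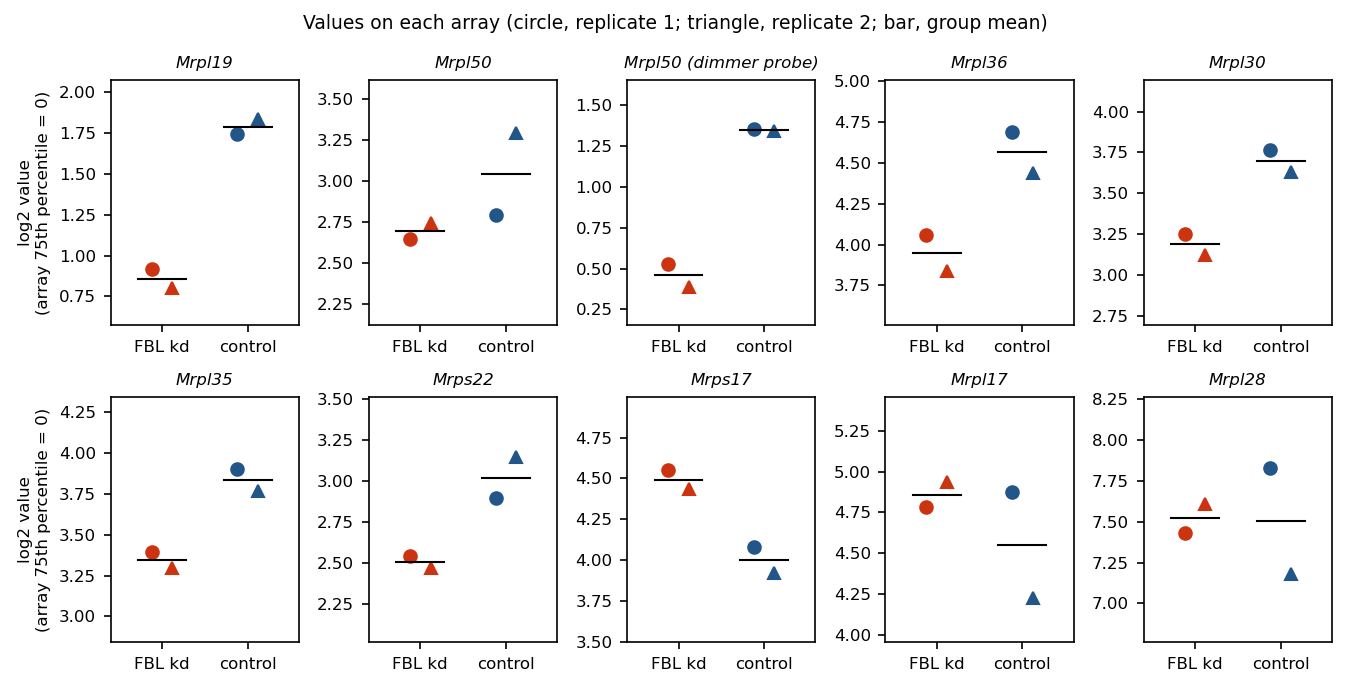
Log2 value (vertical axis, 0 is the 75th percentile of the array) on each of the 4 arrays for 10 probes of 9 genes, with knock-down samples in red at the left and controls in blue at the right of each panel. Circles are replicate 1, triangles replicate 2 and bars group means. Groups do not overlap for Mrpl19, both Mrpl50 probes, Mrpl36, Mrpl30, Mrpl35, Mrps22 and Mrps17. Over all probes tested, both knock-down values lay below both controls at 30.6% and above both at 20.8%. Control values of Mrpl17 and Mrpl28 spread beyond the knock-down values on at least 1 side.

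Considered as lists, both subunits lay slightly below control and slightly below the arrays as a whole. The median change was −0.14 over the large subunit and −0.13 over the small subunit, against −0.06 over all probes tested. Both subunit medians were negative under each of the 15 alternatives run. These are not 15 separate checks. The trended priors and the replicate block cannot move a median, and the slide block gives the same medians as leaving out knock-down sample 2. The change was negative at 77 of 111 member probes and positive at 34. Both knock-down values lay below both controls at 50 member probes, or 45.0%, against 30.6% of all probes. They lay above both controls at 4 member probes, or 3.60%, against 20.8% of all probes. The 5292 probes in the members' range of signal lay nearer to the members, with 36.6% below, 17.9% above and a median change of −0.09. The share below was alike in the subunits, with 31 of 68 large-subunit and 19 of 43 small-subunit probes. The cytosolic ribosomal proteins, measured by 118 probes of 82 genes, had 0 rising and 1 falling probe, against 3.73% and 2.47% of all probes. Their median change was −0.05. Of their probes 28.8% had both knock-down values below both controls and 1.69% above.

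The small shift depended on which control was used. Control 2 lay below control 1 at 93 of the 111 member probes, or 83.8%, against 59.8% of all probes. The median difference of control 2 minus control 1 was −0.25 over the members (−0.21 in the large and −0.27 in the small subunit) and −0.15 over all probes. It was −0.26 over the 5292 probes in the members' range of signal and −0.39 over the cytosolic ribosomal protein probes, of which 94.1% had control 2 below control 1, so the gap was not confined to the members. The corresponding difference between knock-down samples 2 and 1 had a median of −0.04 over the members. Without control 1 the median changes were −0.04 for the large and −0.03 for the small subunit, and without control 2 they were −0.25 and −0.26. The median of all probes moved the same way, to −0.01 without control 1 and −0.11 without control 2. The gap between the controls was therefore larger than the median shift of either subunit. Without control 1, Mrpl17 rose and 5 probes of Mrpl1, Mrpl19, Mrpl35 and Mrpl50 fell in the large subunit, and Mrps22 fell in the small one, while 21.5% of all probes were called. Without control 2, Mrpl14, Mrpl19 and 1 probe of Mrpl50 fell, while 12.9% of all probes were called. Mrpl19 and the lower-reading Mrpl50 probe were called in both of these fits.

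Differences between arrays of the same group were related across the member probes. The spread of the difference between controls was 0.28 (SD over 111 probes) and that between knock-down samples 0.14, against 0.51 and 0.31 over all probes. Across the member probes the difference of knock-down 2 minus knock-down 1 ran against the difference of control 2 minus control 1, with a Pearson r of −0.49 (−0.49 in the large and −0.53 in the small subunit). Over all 25078 probes r was 0.02, and over the 5292 probes in the members' range of signal it was −0.19. Over the cytosolic ribosomal protein probes it was −0.74. These are descriptions across probes that share the same 4 arrays and the same scaling.

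**Figure D4:**
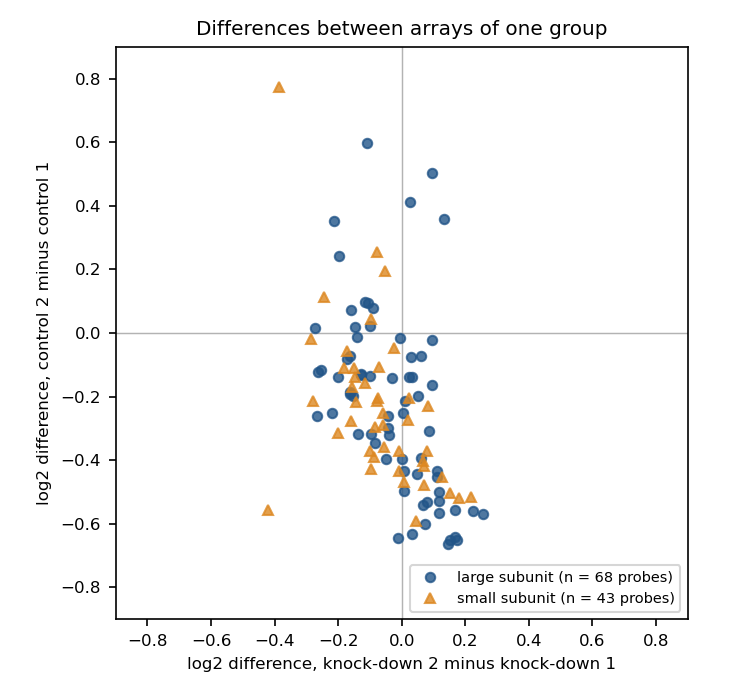
Difference between the knock-down arrays (replicate 2 minus 1, horizontal axis, log2) against the difference between the control arrays (replicate 2 minus 1, vertical axis, log2) for each member probe, with 68 large-subunit probes as circles and 43 small-subunit probes as triangles. Most points lie below 0 on the vertical axis, and probes with the lowest control difference tend to have a knock-down difference above 0 (Pearson r −0.49).

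Of the 77 genes, 26 had more than 1 tested probe and 51 a single probe. The range of changes within a gene had a median of 0.13 and was under 0.2 in 16 of the 26 genes. Changes of both signs were found in 6 of the 26, at Mrps25, Mrpl49, Mrps7, Mrps26, Mrps2 and Mrps6. The range was widest for Mrpl50 at 0.54 and next for Mrps25 at 0.50. Mrps25, a mitochondria-specific subunit, was the only 1 of these 6 whose probes differed by more than 0.5. Its changes were 0.06 ± 0.23 and −0.44 ± 0.29. At the probe with the lower change the values were −4.34 and −4.73 in the knock-down samples and −4.48 and −3.71 in the controls, and the groups overlapped.

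Other genes of mitochondrial translation were read from lists. Of all probes tested 3.73% rose and 2.47% fell, against which these counts are read. Subunits of the mitochondrial ribosome that carry other names had 0 of 8 probes rising and 0 falling, with a median change of −0.15. Among them Aurkaip1 had a change of 0.07 ± 0.26 and Chchd1 one of −0.13 ± 0.22 at the probe with the highest mean. Assembly and rRNA modification factors had 0 of 25 probes rising and 0 falling, with a median of −0.06. Dhx30, an RNA helicase of mitochondrial RNA granules, had a change of 0.02 ± 0.25 and C1qbp, a matrix protein, one of −0.30 ± 0.23. At an unadjusted p under 0.05 limma gave 0 of the 8 and 5 of the 25 probes. The latter is 20.0%, against 20.1% of all probes tested.

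Translation factors had 1 of 24 probes rising and 0 falling (against 3.73% and 2.47% of all probes), with a median of −0.19. The rising probe was 1 of 3 for Oxa1l, which encodes the insertase that places mitochondrial translation products in the inner membrane. It read −2.71 and −2.92 in the knock-down samples and −3.95 and −3.65 in the controls, a rise of 0.99 ± 0.24 with a limma adjusted p of 0.0356. The second Oxa1l probe had a change of 0.86 ± 0.23 with an adjusted p of 0.0531 and both knock-down values above both controls, and the probe with the highest mean had a change of −0.19 ± 0.25. The probes of this gene therefore disagree in sign. Factors of mitochondrial DNA replication and transcription had 0 of 18 probes rising and 0 falling in limma, with a median of −0.16. An unadjusted p under 0.05 was reached by 2 of these probes, or 11.1%, against 20.1% of all probes. Tfam, which packages mitochondrial DNA and starts its transcription, had changes of −0.46 ± 0.23 and −0.10 ± 0.29, and Ssbp1, the mitochondrial single-strand binding protein, −0.62 ± 0.23 at its probe with the highest mean.

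Nuclear regulators of mitochondrial genes had 0 of 18 probes rising and 4 falling (against 3.73% and 2.47% of all probes), with a median of −0.13. Myc, a transcription factor that drives growth genes, fell at 2 of its 3 probes. Its probe with the highest mean read 1.36 and 1.20 in the knock-down samples and 2.28 and 2.23 in the controls, a fall of 0.98 ± 0.22 with an adjusted p of 0.0297. The second fell by 1.01 ± 0.23, and the third had a change of −0.73 ± 0.22 with an adjusted p of 0.0874. Ppargc1b, which encodes the coactivator PGC-1β of mitochondrial biogenesis, read −1.57 and −1.45 in the knock-down samples and −0.43 and −0.47 in the controls at its probe with the highest mean. It fell by 1.06 ± 0.22 there (adjusted p = 0.0198) and fell by 1.33 ± 0.27 at its other probe (adjusted p = 0.0169). Within slide 1 none of the related-list probes was called. Among regulators with motifs in member promoters, the probe with the highest mean of Nrf1 had a change of 0.22 ± 0.23, that of Gabpa −0.41 ± 0.25 and that of Yy1 0.03 ± 0.22, none of them called.

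The promoters of 68 of the 77 members were present in the RefSeq table, as windows from 250 bases before to 50 after the start in GRCm38.p6, and 27025 genes had a window in all. Letters were searched on both strands. A gene counted once if any of its windows held a match, and all genes with a window were the background, expressed or not. The NRF1 letters CGCATGCG stood in 7 members, or 10.3%, against 2.07% of all genes with a window. The ETS letters CCGGAAG, read by GABP among others, stood in 25 members, or 36.8%, against 9.93% of all. The YY1 letters AAGATGGC stood in 12, or 17.6%, against 3.19%. The E-box CACGTG, which MYC and other factors can bind, stood in 5, or 7.35%, against 8.09%. The ZNF143 motif, shown in capitals above at Mrpl50 and Mrps22, was chosen after the values were seen. Among the members it stood in these 2 alone, or 2.94%, against 0.333%. Members that held both NRF1 and ETS letters numbered 3, as did those with both ETS and YY1 letters. A match is a description of these letters and not a binding site.

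The changes of members with and without a motif were set side by side at the probe with the highest mean, with no test. The median change was −0.01 with the NRF1 letters and −0.16 without them. With the ETS letters it was −0.11, and without them −0.17. With the YY1 letters it was −0.19, and without them −0.14. The 5 genes with an E-box had a median of −0.07, and the others −0.16. Mrpl50 and Mrps22 with the ZNF143 motif had a median of −0.43, against −0.13 without, but they were picked out with these changes known.

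Some members start beside a gene on the opposite strand, and how often other genes do so was not counted. Per RefSeq, 20 pairs of a member and a divergent neighbour had starts within 500 bases, and all 20 neighbours were tested. In 1 pair both genes are members, and Mrps11 is counted there as the neighbour of Mrpl46. The change had the same sign in 12 of the 20 pairs, and the median was −0.24 for the members and 0.08 for the neighbours. The Pearson r across the 20 pairs was 0.14, as a description over genes that share the 4 arrays. Of the 20 neighbours 1 was called, against 6.2% of all probes tested. It was Tmem63b, beside Mrpl14, with a rise of 0.96 ± 0.24 (limma adjusted p = 0.0429). Mrpl14 had a change of −0.41 ± 0.25. Mrpl46 and Mrps11 are both members and start 42 bases apart. Mrpl46 read 3.16 and 3.13 in the knock-down samples and 3.61 and 3.47 in the controls, with a change of −0.40 ± 0.22, against 0.09 ± 0.26 for Mrps11. Mrps12 shares its start region with Sars2, the mitochondrial seryl-tRNA synthetase, which had a change of 0.57 ± 0.25. Mrpl43 shares it with Twnk, the helicase of mitochondrial DNA, at 0.12 ± 0.24 for Mrpl43 and 0.30 ± 0.23 for Twnk. Mrpl49 is paired with Fau, which encodes a cytosolic ribosomal protein as a fusion, at −0.11 ± 0.22 for Mrpl49 and 0.09 ± 0.25 for Fau, although the other Mrpl49 probes had changes of 0.16 and 0.14. The called gene Mrpl50 had a change of −0.35 ± 0.25 at the probe with the highest mean, and its neighbour Zfp189 had −0.09 ± 0.27.

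**Figure D5:**
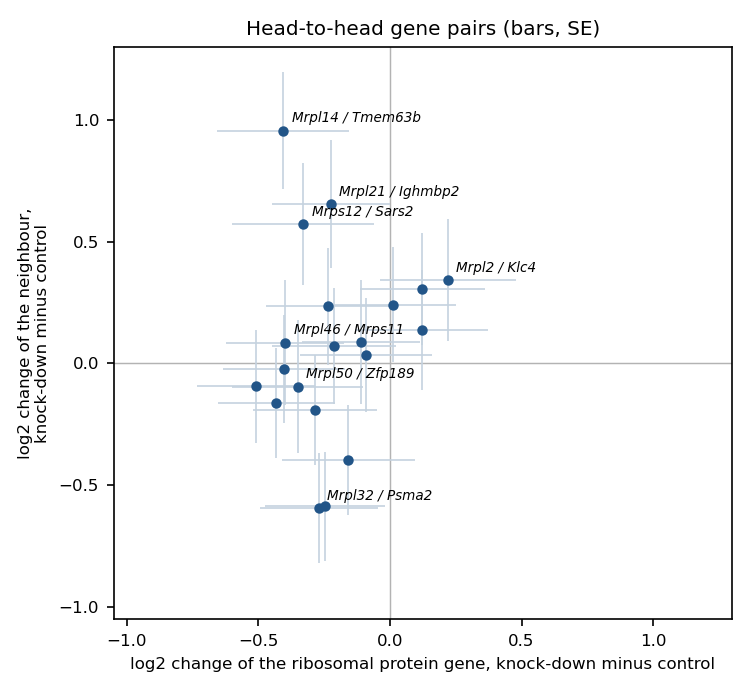
Log2 change (FBL knock-down minus control) of 20 mitochondrial ribosomal protein genes (horizontal axis) against that of the neighbour that starts within 500 bases on the opposite strand (vertical axis), each at the probe with the highest mean, with SE as bars. The points scatter widely (Pearson r 0.14), and Tmem63b beside Mrpl14 is the only neighbour called.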

How the data were processed

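Images were read by the submitters with Agilent Feature Extraction 10.7.3.1, per the submitters' processing notes. The deposited scanner intensity is background-subtracted and not scaled between arrays, per the file headers. The deposited table gives log2 values. In every column 99.8% of its entries lay within 0.01 of log2 processed signal minus a constant that puts the 75th percentile at 0, with no centring, and its column medians were −3.94 and −3.91 for the knock-down samples and −3.85 and −3.98 for the controls. For member probes the difference was at most 0.0065. The processing behind it is otherwise not given in the sources used here.

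The value table was the main source. Of its 41267 entries, 41174 matched a probe. Control spots and outlier-flagged spots (96 to 138 per array) were left out, which removed 50 probes, and no spot was saturated. A probe was tested when it was called well above background on each array of 1 or both groups. Names came from unversioned RefSeq accessions (GRCm38.p6), which named 24350 probes by 1 gene, 0 by several and left 16774 unnamed. The array design refers to an older build, so its coordinates are not used.

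Groups were compared with limma 3.58.1 in R 4.3.3 (lmFit, eBayes, two-sided), with Benjamini-Hochberg adjustment over all 25078 probes and a threshold of 0.05. The script was tested on simulated data. The number of arrays, 2 per group, limits the precision. The members and lists were chosen with earlier results of these data known. Members named are those called, the 4 highest and lowest changes and the 3 brightest and dimmest of each subunit, genes with discordant probes and 12 chosen for their role. Of the related lists, called genes and up to 2 of the brightest are named. Mrpl1, Mrpl14, Mrpl43, Mrpl46, Mrpl49, Mrpl57, Mrps2, Mrps6, Mrps7, Mrps26, the markers, the neighbours, Tfam, Nrf1, Gabpa and Yy1 are named outside that rule, after their values were seen. The normexp alternative used median spot signals, as the files used here carry no mean signal. Protein sequences were not used here. Alternatives covered the value source, background correction, scaling, filter, variance prior, probe choice, slide, replicate block and leaving out each array.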

Additional observations from a re-analysis of the deposited data

How the results depend on the processing

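The main comparison called 1556 of all probes, 2 in the large and 0 in the small subunit, and 5 in the related lists. Counts of all called probes stayed within 1.5 times except with a trended and robust prior (2652), with the slide as a block (686) and with no filter, where limma called 0 although 3878 probes had an unadjusted p under 0.05. Leaving out 1 array gave 686 to 5398. The large-subunit count was 0 with quantile normalization, with the 75th percentile over bright probes, with no filter and with the slide as a block, and 1 with the brightest probe per gene or the mean over probes. Leaving out 1 array gave 0 to 6 calls in the large and 0 to 1 in the small subunit, and small-subunit median changes of −0.26 to −0.028. The related-list count was 3 with normexp, 0 with no filter, 10 with trend, 12 with trend and robust, 2 with the brightest probe or the mean over probes, 0 with the slide block and 0 to 25 with 1 array left out. Fbl kept its direction in every alternative run, and with no filter its change was −2.41 with an adjusted p of 0.0997. The causes were not tested. Of 510 values of 34 uncalled named probes over 15 alternatives, 30 changed sign without a call, at main changes of 0.31 or less in size, and 3 gained a call. Under the trended priors, the replicate block, the missing filter and the choice of the brightest probe, a probe keeps its main estimate, so no sign could change. Where an arm had 1 array, it was assumed to vary like the other group.

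Over all probes tested, same-numbered samples deviated with a correlation of 0.02, and over the member probes it was −0.49. With 2 arrays per group this cannot show whether the numbers pair the samples. With the replicate number as a block, 2286 probes were called in all, 2 in the large subunit, 0 in the small subunit and 6 in the related lists.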
